A study of Mus musculus with 6 samples.

Results

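The genes described here are 32 enzymes, enzyme subunits and carriers of the tricarboxylic acid (TCA) cycle and of itaconate synthesis, taken by gene name from a fixed list out of a table of 54532 genes. RNA was measured in N9 microglia, immortalized mouse cells of microglial origin, so that every library comes from 1 line and not from separate animals. The control group was 3 samples of untreated N9 cells, and the other group was 3 samples given lipopolysaccharide (LPS), a cell wall constituent of gram-negative bacteria, at 1 µg/ml for 6 h. All 6 samples were grown in the same serum-containing RPMI medium, and no label says whether the samples of a group were separate cultures, so p-values measure the spread between these samples only. The comparison asks how this pathway of central metabolism changes at the RNA level when microglia are activated.

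The TCA cycle oxidizes acetyl-CoA in the mitochondrial matrix. Pyruvate dehydrogenase supplies the acetyl-CoA, citrate synthase joins it to oxaloacetate, and the following steps return oxaloacetate while they pass electrons to the respiratory chain. Citrate can also leave the mitochondrion and be cleaved to acetyl-CoA for lipid synthesis. In activated macrophages and microglia, aconitate decarboxylase 1 (Acod1) draws cis-aconitate, an intermediate of the aconitase reaction, out of the cycle and converts it to itaconate, a metabolite known as an inhibitor of succinate dehydrogenase.

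Total counts ran from 16363767 to 17956772 per library, and levels are given as CPM, counts scaled to library size with TMM factors from 0.9646 to 1.036. A gene was called when edgeR's quasi-likelihood test gave an adjusted p (Benjamini-Hochberg over the 12296 genes tested) under 0.05, and a DEG also had an absolute log2 fold change (log2FC) over 1.5, the threshold of the study. Of 14 markers of microglia and macrophages, 12 were tested, and the list summed to between 2236 and 2471 CPM per library. Of those tested, 3 were called higher and 4 lower with LPS, against 18.7% and 15.7% of all genes tested. P2ry12 and Aif1 were near 0, at 3 to 6 and 4 to 9 counts. Cx3cr1 and Tmem119 were also low, at means of 3.05 and 9.65 CPM in control libraries. Hepatocyte markers (11 genes, which microglia should lack) were present in control replicates 2 and 3, where they summed to 14.1 and 24.4 CPM, against 0.127 to 0.67 CPM in the other 4 libraries. Neuron markers (6 genes) summed to at most 1.4 CPM and oligodendrocyte markers (5 genes, with Olig2 at 0 throughout) to at most 1.05 CPM, while the 6 astrocyte markers summed to between 96 and 105 CPM, nearly all from Gja1 and Aldh1l1, with Slc1a3 and Aqp4 at 0 to 3 counts. Each call below is therefore also given without control replicates 2 and 3 where that ended it. Those fits compare 1 control library with 3 LPS libraries, take the spread from the LPS libraries and assume that the lone control would vary like them, so a call kept or lost there is weak evidence.

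All 32 members passed the filter on low counts, since the least counted of them averaged 656 counts per library. Acod1 was up-regulated 26.1-fold and was the only DEG among the members. Of the other 31 members, 2 rose (Acly and Pcx), 4 fell (Slc25a1, Idh1, Pdhx and Me1) and 25 did not pass the test, and in 29 of the 31 the estimated difference was under 1.2-fold. Across all genes tested, 34.3% were called, 18.7% higher and 15.7% lower with LPS, and 2.65% were DEG, so the 21.9% of members called is below that background. Over all genes these were 2294 higher and 1927 lower, and scaling by upper-quartile factors turned that split to 1845 higher and 2497 lower, and that of the members to 2 higher and 8 lower. The share of members with a difference over 1.5-fold was 3.12%, against 12.6% of all genes tested. The median log2FC was -0.04 over the members and 0.00 over all genes tested.

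Acod1 (ENSMUSG00000022126) lies on chromosome 14 of mm10 from 103046977 to 103056573, on the plus strand. Control libraries held 2523, 2682 and 2886 counts of it, and LPS libraries held 64362, 65481 and 62663. In CPM these are 147, 152 and 155 in control cells and 4079, 3993 and 3816 with LPS, and the lowest LPS library stood far above the highest control library. The log2FC was 4.71 (standard error 0.04, adjusted p = 5.8e-19), with a 95% interval from 24.8-fold to 27.6-fold, and this was the smallest p of all genes tested. By size of change Acod1 ranked 42nd. In control cells the gene was already well expressed and ranked from 1387th to 1454th by count. With LPS it became the 8th to the 10th most counted of all genes, and its share of all counts went from between 0.0152% and 0.0161% to between 0.37% and 0.393% (95% Wilson intervals within ±0.003 percentage points, counting error only). Leaving out any single library gave a log2FC from 4.68 to 4.74, and it was 4.75 without control replicates 2 and 3.

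With that rise, the make-up of the pathway's RNA changed. The 32 members together took 0.794% to 0.807% of counts in control libraries and 1.1% to 1.15% in LPS libraries. Without Acod1, the other 31 took 0.778% to 0.792% and 0.722% to 0.753%. These are shares of raw counts, without TMM factors, and on scaled levels the median log2FC of the 31 was -0.04. Per length, Acod1 stood at 0.53 ± 0.01 times the level of citrate synthase (Cs) in control cells (SD, n = 3) and at 13.9 ± 0.55 times with LPS. Against Sdha, the catalytic subunit of succinate dehydrogenase, the ratio went from 0.66 ± 0.03 to 17.5 ± 0.89. For both ratios every LPS library lay above every control library.

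**Figure D1:**
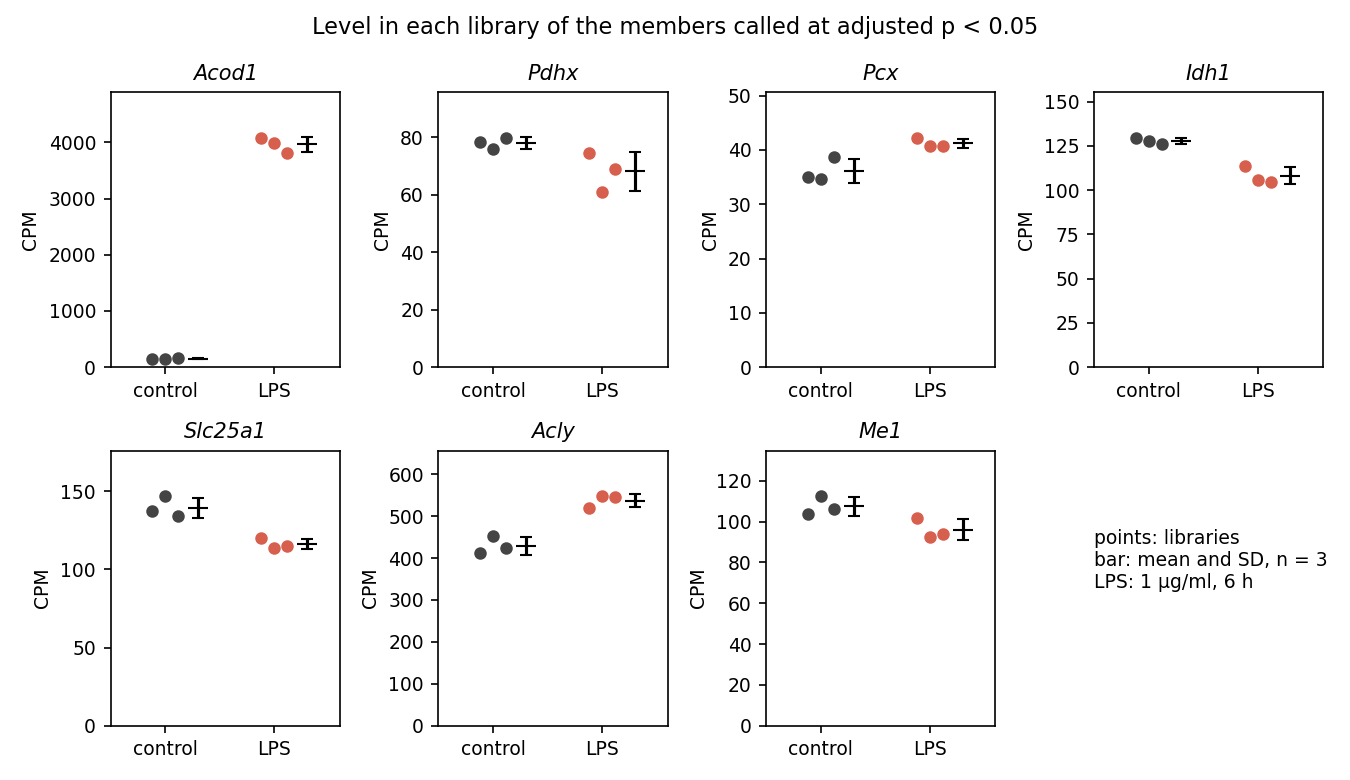
Level in CPM (vertical axis, from 0) of the 7 members called at an adjusted p under 0.05, in each of 3 control and 3 LPS libraries. Points are libraries and bars give the mean and SD (n = 3). Acod1 goes from 152 to 3963 CPM on average, whereas the other panels show shifts of at most 25.1% with groups that do not overlap.

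Of the genes of citrate export and cleavage, Slc25a1 fell and Acly rose. Slc25a1, the mitochondrial citrate carrier, stood at 138, 147 and 134 CPM in control libraries and 120, 114 and 115 CPM with LPS. All LPS libraries were below all control libraries, and the log2FC was -0.26 (standard error 0.05, adjusted p = 6.1e-04), with a 95% interval from -22.5% to -10.5%. Acly, the ATP citrate lyase that cleaves exported citrate in the cytosol, stood at 411, 453 and 424 CPM in control libraries and 519, 547 and 545 CPM with LPS. The groups did not overlap, and the log2FC was 0.32 (standard error 0.04, adjusted p = 3.5e-05), with a 95% interval from 17.3% to 33.4%. Acly thus had the largest difference among the members after Acod1. Both calls held with any single library removed. Against control replicate 1 alone, the log2FC was 0.39 for Acly and -0.24 for Slc25a1. Slc25a1 lies on chromosome 16 from 17925223 to 17928219 and Acly on chromosome 11 from 100476353 to 100528000, both on the minus strand.

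Slc25a11, the carrier that exchanges 2-oxoglutarate for malate, was measured at 124, 123 and 124 CPM in control libraries and 114, 111 and 120 CPM with LPS. Every LPS library was below every control library, yet the adjusted p was 0.10 at a log2FC of -0.10 (standard error 0.05). Among all genes tested, 45.3% had groups that did not overlap, 23.7% with LPS above and 21.5% with LPS below control. Among the members these were 10 genes, 5 in each direction. Of the exon bases of Slc25a11, 189 (8.92%) also belong to Rnf167 on the opposite strand, and the strand setting of the authors' counting is not given in the sources used here.

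The NADP-dependent isocitrate dehydrogenases are encoded by Idh1 and Idh2. Idh1, the cytosolic enzyme, stood at 130, 128 and 126 CPM in control libraries and 114, 106 and 105 CPM with LPS. The groups were separate, with a log2FC of -0.24 (standard error 0.05, adjusted p = 9.98e-04; 95% interval from -21.1% to -9.24%), and the call held with any single library removed. Against control replicate 1 alone, the log2FC was -0.26. Idh2, its mitochondrial counterpart, stood at 213, 202 and 199 CPM and at 205, 199 and 195 CPM, with overlapping groups and a log2FC of -0.04 (standard error 0.04, adjusted p = 0.57). Per length, the ratio of Idh1 to Idh2 was 0.569, 0.589 and 0.593 in control libraries and 0.519, 0.498 and 0.501 with LPS. All LPS ratios lay below all control ratios, although a two-sided exact permutation test of 3 against 3 libraries cannot go below p = 0.1. Idh1 lies on chromosome 1 from 65158616 to 65186500, on the minus strand.

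Malic enzymes convert malate to pyruvate. Me1, the cytosolic form, which yields NADPH, stood at 104, 112 and 106 CPM in control libraries and 102, 92.6 and 93.9 CPM with LPS. LPS replicate 1 was close below control replicate 1, and the log2FC was -0.16 (standard error 0.05, adjusted p = 0.026). This call was lost without control replicate 2 (log2FC -0.13, adjusted p = 0.0902), control replicate 3 (-0.18, 0.0565), LPS replicate 2 (-0.13, 0.12) or LPS replicate 3 (-0.14, 0.0956). It was also lost without control replicates 2 and 3 together, at a log2FC of -0.11. Me2, the mitochondrial form, had 212 to 216 CPM in control cells and 198 to 213 CPM with LPS (log2FC -0.08, standard error 0.04, adjusted p = 0.18). Glud1, glutamate dehydrogenase, which feeds 2-oxoglutarate into the cycle, had 586 to 594 CPM and 550 to 588 CPM (log2FC -0.07, standard error 0.04, adjusted p = 0.19).

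The promoters of Acod1, Acly, Slc25a1 and Idh1, called in each setting in which members were refitted, and of Me1, are shown to set the sequences beside the changes. Windows run from 250 bases before to 50 after a RefSeq start site, the listed one nearest to the gene's annotated start, on GRCm38.p6, read along the gene's own strand. RefSeq gave a window for 29 of the 32 members. The start site used for Sucla2 lay 27467 bases from the gene's annotated start, yet its window is kept in the counts below. Those of Slc25a11 and Mdh1 lay 440 and 433 bases away. Capitals mark matches on either strand to a loose NF-kappa B pattern (GGG, any 5 bases, then CC) and in Me1 also, at a separate place, to TGACNNNGC, the core of the antioxidant response element.
Acod1, chr14:103046762-103047061, plus strand: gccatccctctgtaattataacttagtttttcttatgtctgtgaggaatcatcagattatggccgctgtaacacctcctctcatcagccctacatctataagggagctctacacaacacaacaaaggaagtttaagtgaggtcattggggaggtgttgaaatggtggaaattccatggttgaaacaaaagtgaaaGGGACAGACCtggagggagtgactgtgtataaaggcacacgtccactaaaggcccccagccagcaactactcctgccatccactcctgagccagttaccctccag
Acly, chr11:100527951-100528250, minus strand: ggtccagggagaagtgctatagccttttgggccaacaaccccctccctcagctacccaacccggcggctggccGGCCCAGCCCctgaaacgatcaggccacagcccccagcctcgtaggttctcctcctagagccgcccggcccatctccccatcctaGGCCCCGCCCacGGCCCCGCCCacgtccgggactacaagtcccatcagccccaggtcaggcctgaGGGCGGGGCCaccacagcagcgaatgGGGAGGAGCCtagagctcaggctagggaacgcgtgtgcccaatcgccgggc
Slc25a1, chr16:17928170-17928469, minus strand: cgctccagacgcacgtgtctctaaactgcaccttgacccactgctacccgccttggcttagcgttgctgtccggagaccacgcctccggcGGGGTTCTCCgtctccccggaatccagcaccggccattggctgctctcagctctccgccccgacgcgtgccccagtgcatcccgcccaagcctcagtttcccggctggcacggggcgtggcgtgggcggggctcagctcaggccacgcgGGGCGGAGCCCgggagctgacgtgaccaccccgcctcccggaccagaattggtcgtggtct
Idh1, chr1:65186430-65186729, minus strand: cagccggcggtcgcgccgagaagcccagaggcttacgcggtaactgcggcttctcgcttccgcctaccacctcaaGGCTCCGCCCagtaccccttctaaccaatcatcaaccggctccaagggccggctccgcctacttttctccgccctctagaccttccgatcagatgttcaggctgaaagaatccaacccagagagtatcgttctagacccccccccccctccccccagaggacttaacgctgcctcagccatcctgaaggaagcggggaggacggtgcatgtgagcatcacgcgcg
Me1, chr9:86695865-86696164, minus strand: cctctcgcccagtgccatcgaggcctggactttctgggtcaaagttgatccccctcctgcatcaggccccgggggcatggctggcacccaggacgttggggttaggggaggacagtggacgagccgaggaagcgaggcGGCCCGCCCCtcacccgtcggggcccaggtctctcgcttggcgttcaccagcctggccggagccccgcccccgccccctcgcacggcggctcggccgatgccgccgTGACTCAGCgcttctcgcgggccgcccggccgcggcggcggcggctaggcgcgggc

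The Acod1 window held a single match to the NF-kappa B pattern, GGGACAGACC, whose first base lies 55 bases before the start site. That pattern was in 22 of the 29 member windows (75.9%) and in 50.8% of all 32851 promoter windows of the same length, so its presence is common. Of the members called, Me1 alone held TGACNNNGC, as TGACTCAGC starting 6 bases before the start site, and 6 of 29 member windows (20.7%) held it against 12.4% of all windows. The interferon-stimulated response element, as GAAA repeated after any 2 bases, was in 1 member window, that of Suclg2 (3.45% of 29, against 3.44% of all), and not in that of Acod1. The NRF1 palindrome, GCGCA followed by its reverse complement, was in 0 member windows and 0.971% of all, and the element of estrogen-related receptors, TCAAGGTCA, was in 1, that of Sdhd, against 0.423% of all. These are matches of letters, and no binding was measured here.

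Pyruvate reaches the cycle through the pyruvate dehydrogenase complex or through pyruvate carboxylase. The complex's catalytic subunits did not pass the test: Pdha1 had a log2FC of -0.05, Pdhb of 0.03 and Dlat, the acetyltransferase, of -0.01, with standard errors of 0.05 and adjusted p from 0.43 to 0.91. The 95% interval was from -10.0% to 3.37% for Pdha1. Of the exon bases of Pdha1, 16.1% (603 of 3734) are also annotated to Map3k15 on the opposite strand, a gene whose whole count was 4.02% of that of Pdha1.

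Pdhx, the component that tethers dihydrolipoamide dehydrogenase in the complex, stood at 78.2, 75.8 and 79.8 CPM in control libraries and 74.5, 60.8 and 69 CPM with LPS. The LPS libraries were all lower but spread more than the controls, and the log2FC was -0.20 (standard error 0.07, adjusted p = 0.031). The call was lost without LPS replicate 2, the lowest library (log2FC -0.12, adjusted p = 0.167), and also, with the log2FC little changed, without control replicate 3 (-0.18, adjusted p = 0.10), LPS replicate 3 (-0.20, adjusted p = 0.0657) or control replicates 2 and 3 (-0.20, adjusted p = 0.17).

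Pcx, pyruvate carboxylase, which makes oxaloacetate from pyruvate, stood at 35.1, 34.6 and 38.7 CPM in control libraries and 42.2, 40.6 and 40.8 CPM with LPS. The groups were separate, and the log2FC was 0.19 (standard error 0.07, adjusted p = 0.042). This was the least stable of the 7 calls, since it was lost with DESeq2 (adjusted p = 0.134) and without control replicate 1 (0.122), control replicate 2 (0.154), LPS replicate 1 (0.113), LPS replicate 2 (0.0769) or LPS replicate 3 (0.0739). In these fits the log2FC of Pcx was between 0.15 and 0.20. Its highest control library was control replicate 3, which also held the most hepatocyte marker reads. Its lowest was control replicate 2, the other library in which those markers were present. Without control replicates 2 and 3 the log2FC of Pcx was 0.23, and the call was lost. Pcx was also the member with the lowest level per length.

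**Figure D2:**
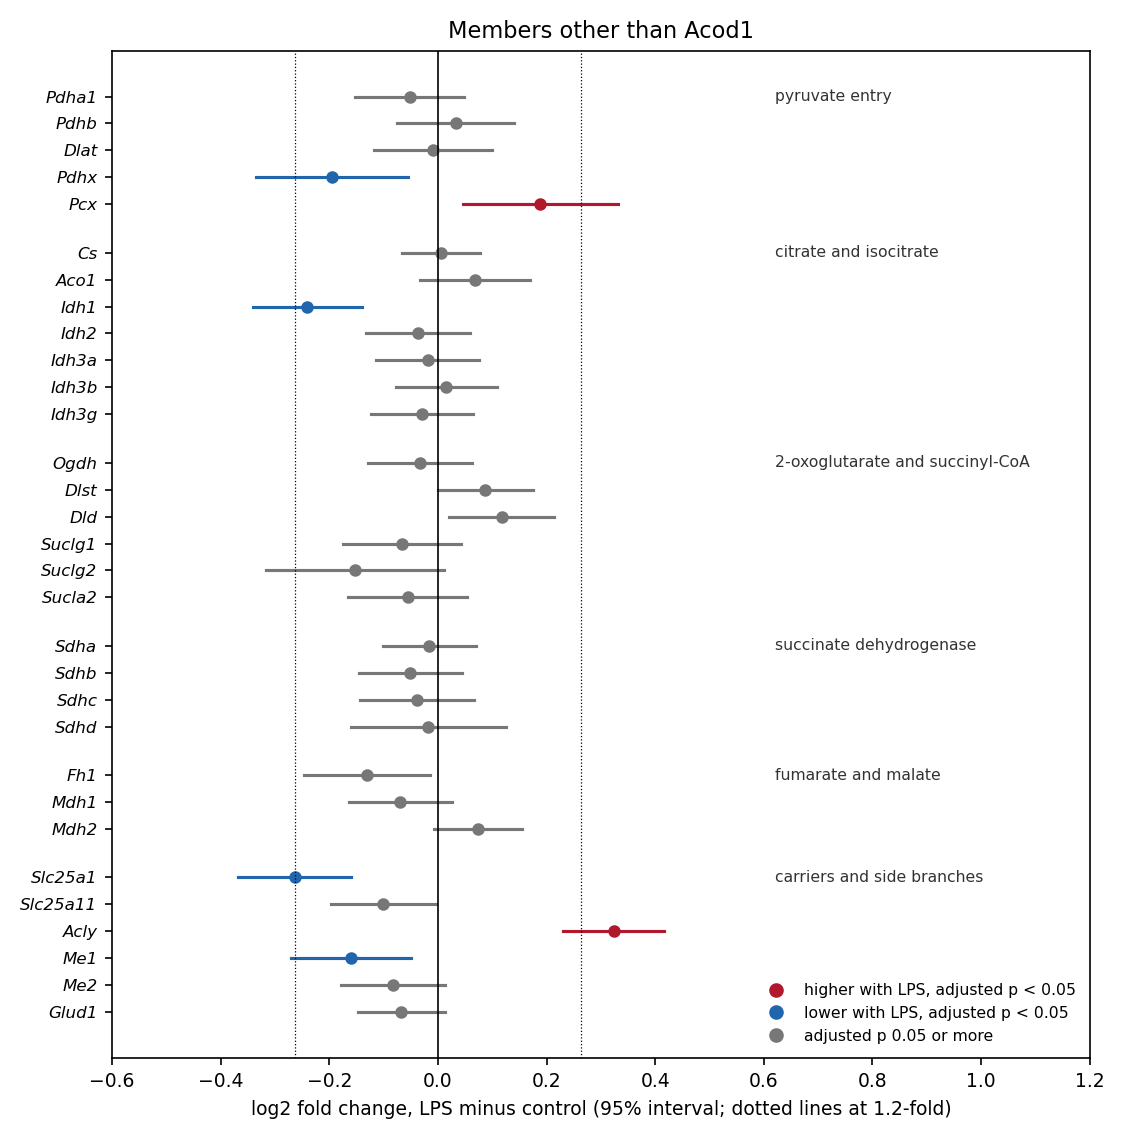
Log2FC (LPS minus control, horizontal axis) of the 31 members other than Acod1, grouped by role, with 95% intervals from edgeR's fit and dotted lines at 1.2-fold. Acly lies to the right of the upper dotted line, Slc25a1 on the lower one, and 24 intervals lie wholly between the lines.

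The ring itself was nearly level. Of the 7 genes of the citrate and isocitrate steps, Idh1 alone passed the test. Cs, which forms citrate, stood at 620, 634 and 624 CPM in control libraries and 622, 632 and 630 CPM with LPS. The groups overlap almost fully, and the log2FC of 0.00 (standard error 0.03, adjusted p = 0.93) had a 95% interval from -4.54% to 5.45%. The subunits of the NAD-dependent isocitrate dehydrogenase, Idh3a, Idh3b and Idh3g, had log2FC of -0.02, 0.02 and -0.03 with adjusted p of 0.78, 0.82 and 0.66. Aco1, the cytosolic aconitase that also serves as an iron-regulatory protein, had a log2FC of 0.07 (standard error 0.05, adjusted p = 0.30).

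None of the 6 genes of the 2-oxoglutarate and succinyl-CoA steps was called. Dlst and Dld, components of the 2-oxoglutarate dehydrogenase complex of which Dld is shared with pyruvate dehydrogenase, had every LPS library above every control library. Dld stood at 408, 396 and 393 CPM in control libraries and 461, 422 and 415 CPM with LPS, with LPS replicate 1 the highest. Its log2FC was 0.12 (standard error 0.05, adjusted p = 0.058), and it passed the threshold without LPS replicate 3 (adjusted p = 0.0392), with the replicate block (0.0215), with robust dispersion (0.0268) and over protein-coding genes alone (0.0439). Without LPS replicate 1 the log2FC of Dld was 0.07 (adjusted p = 0.237). Dlst had a log2FC of 0.09 (standard error 0.04, adjusted p = 0.12), whereas Ogdh, the decarboxylating component, had -0.03 (standard error 0.04, adjusted p = 0.62).

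Succinyl-CoA synthetase pairs the subunit Suclg1 with Suclg2 (GTP-forming) or Sucla2 (ATP-forming). Suclg1 and Sucla2 had log2FC of -0.07 and -0.06 with adjusted p of 0.35 and 0.44. Suclg2 stood at 120, 112 and 96.2 CPM in control libraries and 105, 88.8 and 101 CPM with LPS, so that control replicate 3 was among the LPS values. The log2FC was -0.15 (standard error 0.08, adjusted p = 0.14), the largest standard error of the members. Suclg2 passed the threshold without control replicate 3 (log2FC -0.25, adjusted p = 0.0223), and without control replicates 2 and 3 the log2FC was -0.29. The difference was smaller without control replicate 1 (log2FC -0.09) or LPS replicate 2 (log2FC -0.08).

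Succinate dehydrogenase, the enzyme that itaconate inhibits and that is also complex II of the respiratory chain, showed no change that passed the test in any of its 4 subunits. Sdha stood at 367, 364 and 348 CPM in control libraries and 349, 357 and 361 CPM with LPS. Its log2FC was -0.02 (standard error 0.04, adjusted p = 0.80; 95% interval from -6.75% to 4.94%). Sdhb, the iron-sulfur subunit, and the membrane anchors Sdhc and Sdhd had log2FC of -0.05, -0.04 and -0.02 with adjusted p of 0.42, 0.60 and 0.87. All 4 groups of values overlap, and all 4 intervals lie within 1.2-fold. Sdhd varied most between control libraries, at 288, 233 and 243 CPM, and without control replicates 2 and 3 its log2FC was -0.20 (adjusted p = 0.0507).

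In the closing steps, Fh1, fumarase, stood at 179, 183 and 189 CPM in control libraries and 183, 159 and 162 CPM with LPS, where LPS replicate 1 was within the control range. Its log2FC was -0.13 (standard error 0.05, adjusted p = 0.078), and it passed the threshold without LPS replicate 1 (log2FC -0.20, adjusted p = 0.00862), without control replicate 1 (adjusted p = 0.0443), with the replicate block (0.0487) and with robust dispersion (0.0424). The malate dehydrogenases were not called. Cytosolic Mdh1 had a log2FC of -0.07 and mitochondrial Mdh2 of 0.07, both with a standard error of 0.04 and adjusted p of 0.26 and 0.16. Per length, the ratio of Mdh1 to Mdh2 was 0.519, 0.539 and 0.543 in control libraries and 0.486, 0.467 and 0.498 with LPS, with all LPS ratios below all control ratios, as for Idh1 and Idh2 and again with no p under 0.1 possible for an exact test. The ratio of Me1 to Me2 was also lower in every LPS library, but only just, at 0.3058 in LPS replicate 1 against 0.3068 in control replicate 1. How often such ratios separate among other gene pairs was not tested. Those of Suclg2 to Sucla2 and of Idh3b to Idh3g had overlapping groups.

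Intervals here are for single genes and are not adjusted over genes. Of the 31 members other than Acod1, 24 had a 95% interval wholly within 1.2-fold (77.4%), against 29.8% of all genes tested, where the median standard error was 0.08, as opposed to 0.05 in these members. The exceptions were the 6 called genes and Suclg2. The intervals of Dld, Fh1 and Slc25a11 left out 0 although their adjusted p was over 0.05.

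Per length, levels in control cells spanned a wide range. Mdh2 was highest at 230 ± 6.33 CPM per kilobase (SD, n = 3), followed by Sdhd at 207 ± 23.9, whose SD reaches the level of Mdh2, and then Glud1 at 140 ± 0.91 and Mdh1 at 123 ± 0.50. Cs and Dld followed at 108 ± 1.3 and 108 ± 2.1, which do not differ beyond their spread. At the low end stood Pcx at 7.79 ± 0.48, and above it Aco1 at 19.5 ± 0.75 and Pdhx at 19.8 ± 0.50, again within their spread. Acod1 was in the middle at 57.8 ± 1.53 CPM per kilobase, next to Slc25a11 at 58.2 ± 0.18, a gap smaller than the SD of Acod1. With LPS, Acod1 rose to 1511 ± 51.3 and Mdh2, now next in order, was at 242 ± 10.2. These levels use the gene lengths listed by the authors and assume that the transcripts present have those lengths.

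**Figure D3:**
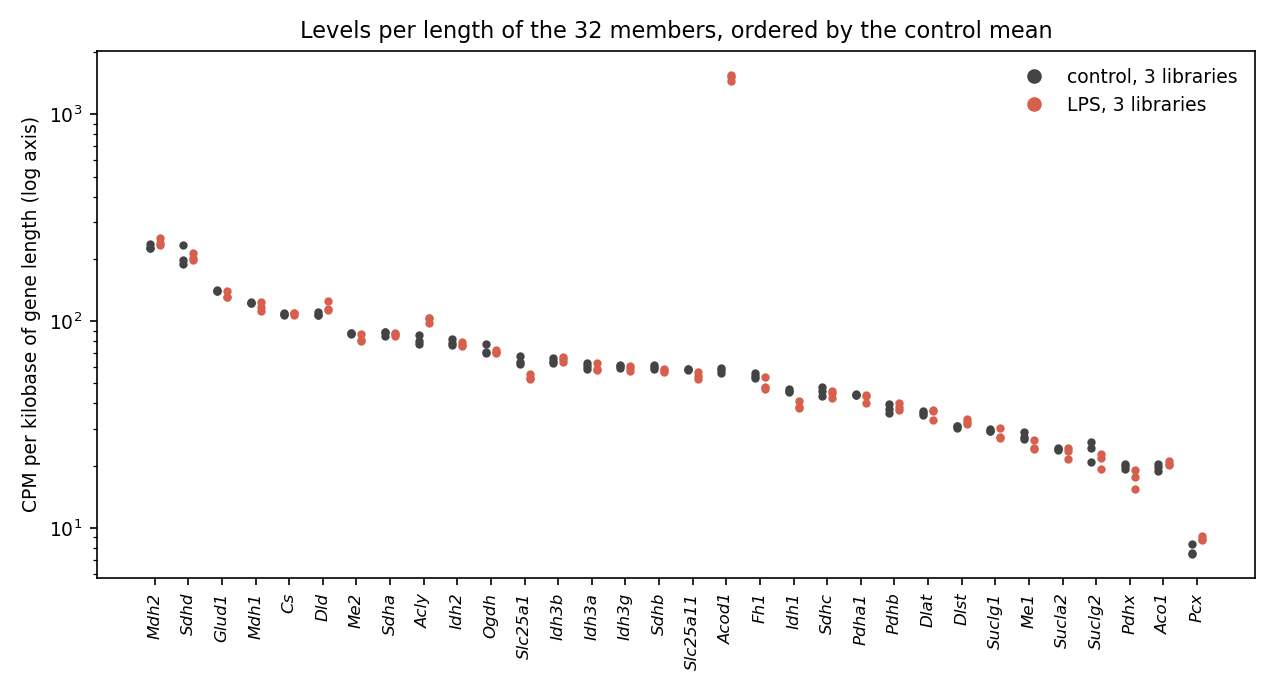
CPM per kilobase of gene length (vertical log axis) of the 32 members in each control and LPS library, ordered by the control mean. Points of the same gene nearly coincide, except for Acod1, which moves from 57.8 in control cells to 1511 with LPS, above every other member.

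A list of 51 further genes covers the regulation, cofactors, carriers and side reactions of the pathway. It has 52 lines in the table, since the name Nnt occurs with 2 gene IDs, and 40 of the lines were tested. Of these, 4 rose, 7 fell and 29 did not pass the test (27.5% called, against 34.3% of all genes tested). The median log2FC was -0.10, and none was a DEG.

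Among the regulators of pyruvate dehydrogenase, Pdk1, a kinase that inactivates the complex, stood at 95, 91.4 and 92.8 CPM in control libraries and 77.1, 73.7 and 68.5 CPM with LPS. All LPS libraries were lower, with a log2FC of -0.35 (standard error 0.05, adjusted p = 1.0e-04), a larger decrease than in any of the 32 members. Pdpr, the regulatory subunit of the activating phosphatase, fell from 44.6 ± 3.56 to 34.9 ± 1.39 CPM (SD, n = 3; log2FC -0.36, standard error 0.07, adjusted p = 0.0013), and lost the call without control replicates 2 and 3 (adjusted p = 0.0957). Pdk2 (26, 24 and 34 counts against 21, 20 and 14) and Pdk3 had adjusted p of 0.28 and 0.64, and Pdk4 had 0 counts in every library. The mitochondrial pyruvate carrier genes Mpc1 and Mpc2 had log2FC of 0.12 (standard error 0.12, adjusted p = 0.50) and 0.00 (standard error 0.08, adjusted p = 0.97).

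Itaconate is broken down by way of itaconyl-CoA and citramalyl-CoA. Sugct, a CoA transferase, had 3 to 8 counts per library and was not tested. Auh, a hydratase that also acts in leucine breakdown, stood at 25.5, 23.6 and 22.8 CPM in control libraries and 18.1, 18 and 16.9 CPM with LPS. The groups were separate, and the log2FC was -0.44 (standard error 0.09, adjusted p = 0.0010). Clybl, the citramalyl-CoA lyase, had a log2FC of 0.09 (standard error 0.10, adjusted p = 0.54).

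Of the related genes that rose, Slc25a22, a mitochondrial glutamate carrier, stood at 81.7, 86.4 and 79.4 CPM in control libraries and 117, 128 and 117 CPM with LPS (log2FC 0.55, standard error 0.05, adjusted p = 1.1e-06). Glul, glutamine synthetase, rose from 59.2 ± 3.51 to 79.4 ± 1.06 CPM (SD, n = 3; log2FC 0.42, standard error 0.05, adjusted p = 2.1e-05). Adhfe1, a dehydrogenase that links 4-hydroxybutyrate to 2-hydroxyglutarate, stood at 8.64, 8.28 and 8.71 CPM in control libraries and 15.5, 14.8 and 15.2 CPM with LPS. Its log2FC of 0.83 (standard error 0.10, adjusted p = 1.7e-05) was the largest of the list.

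The related genes that fell included Slc25a10, the mitochondrial dicarboxylate carrier for malate and succinate, from 50.1 ± 3.6 to 37.1 ± 0.99 CPM (SD, n = 3; log2FC -0.43, standard error 0.07, adjusted p = 1.4e-04). Pck2, the mitochondrial phosphoenolpyruvate carboxykinase, fell from 108 ± 7.45 to 92.9 ± 3.36 CPM (log2FC -0.22, standard error 0.05, adjusted p = 0.0056). Acss2, which makes cytosolic acetyl-CoA from acetate, fell from 18.9 ± 1.22 to 15.4 ± 0.75 CPM (log2FC -0.29, standard error 0.09, adjusted p = 0.026). The call for Acss2 was lost with DESeq2 (log2FC -0.30, adjusted p = 0.0779) and without control replicate 2 (adjusted p = 0.0948), control replicate 3 (0.0625), LPS replicate 1 (0.0865) or LPS replicate 2 (0.0505). On removal of any single library its log2FC ran from -0.35 to -0.25. Without control replicates 2 and 3 together the call was also lost, at a log2FC of -0.19. Oxct1, which activates ketone bodies and was named after its values were seen, had a log2FC of -0.135 (adjusted p = 0.0128). It was not called without control replicate 3, nor without control replicates 2 and 3 together. Pck1, singled out after its values were seen, is the cytosolic carboxykinase typical of liver and had 0, 10 and 9 counts in control libraries and 0, 0 and 2 with LPS, so that its counts stood in the same 2 control libraries as the hepatocyte markers. The part of hepatocyte RNA in any result given here was not tested beyond leaving those libraries out.

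**Figure D4:**
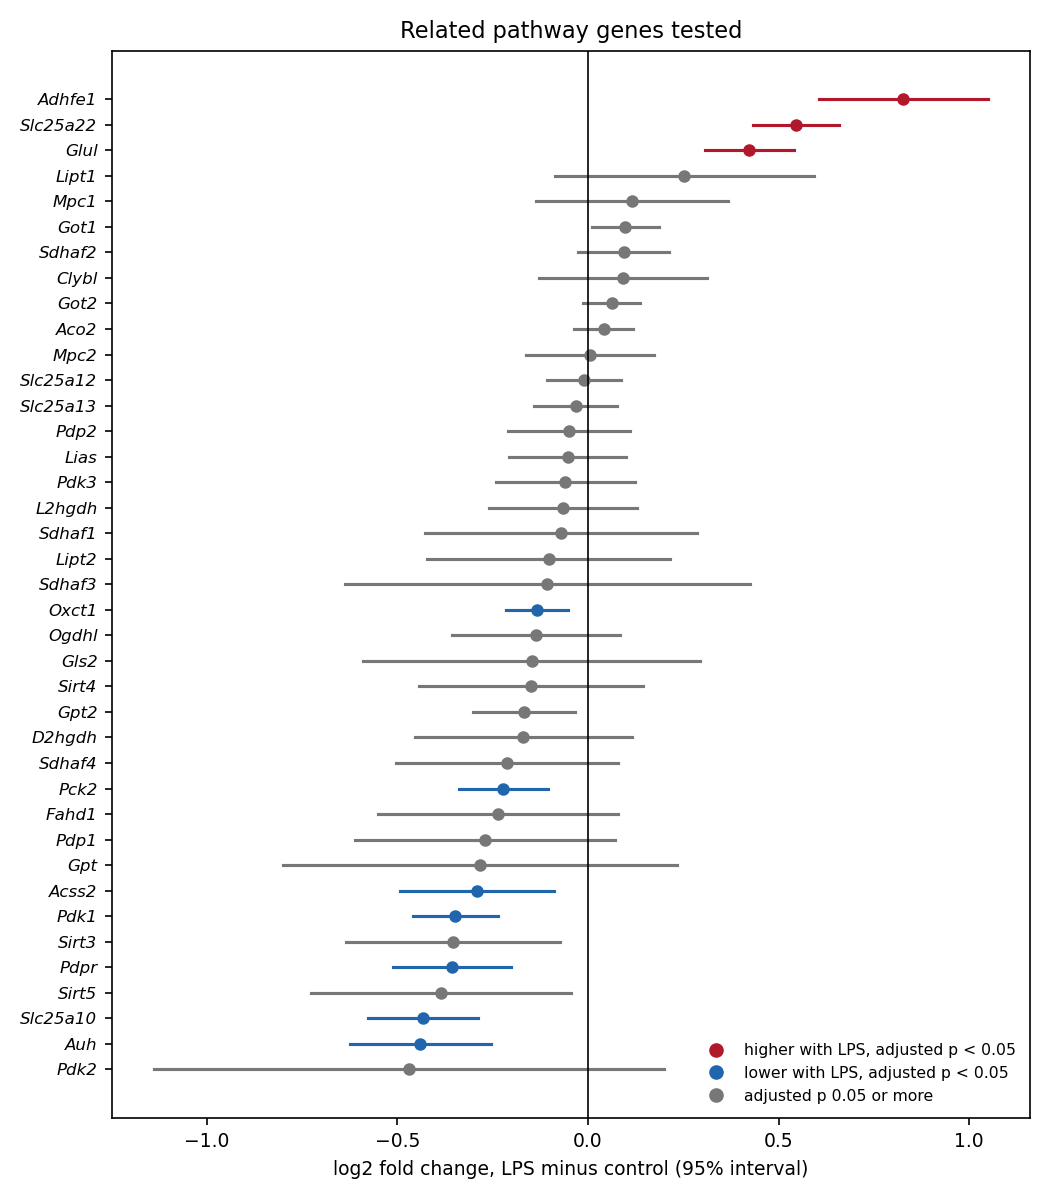
Log2FC (LPS minus control, horizontal axis) with 95% intervals for the related genes tested, with 1 gene left out, ordered by size. Adhfe1 and Slc25a22 lie farthest to the right, and genes in red rose while the 7 in blue fell.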

How the data were processed

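The authors deposited read counts per gene for 3 control and 3 LPS libraries of N9 microglia, whole numbers without normalization. Per the labels, the submitters' processing notes name featureCounts 1.5.0-p3 and mm10, while the aligner and the strand setting are not given in the sources used here. Their other table holds their own DESeq2 comparison, and it was not used, nor were its 24 columns of values per sample. Gene length, another quantity in the deposited table, was used for levels per kilobase.

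From the counts, edgeR 4.0.16 under R 4.3.3 was run with TMM, filterByExpr by group, a prior count of 0.125 and no replicate term, and p-values were adjusted by the Benjamini-Hochberg method over 12296 genes. The standard error is the size of the log2FC divided by the square root of F. Single libraries hold 3 counts at 0.161 to 0.19 CPM. Replicate pairs within a group differed by more than sampling noise (chi-square per gene from 3.55 to 7.71). Alternatives were DESeq2 1.42.0, RLE and upper-quartile factors, other filters, a prior count of 2, robust dispersion, glmTreat, protein-coding genes alone, a replicate block and each library left out. On simulated counts for 54532 genes edgeR recovered 200 of 200 changed genes with 4 false calls. Recovery of differences as small as those of the called members other than Acod1 was not tested. GENCODE release M21 held all 32 members, 31 at the same coordinates, and 27 share no exon base with another gene.

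Members and lists were chosen with earlier results of these data known. Named genes are all members, 9 related genes fixed by name, and the 8 other related genes with the largest changes among those called with separate groups, of which 1 is not reported here. Leaving out control replicates 2 and 3 together was added after the data were seen.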

Additional observations from a re-analysis of the deposited data

How the results depend on the processing

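The calls of Acod1, Acly, Slc25a1 and Idh1 held under every alternative in which members were refitted, which leaves out glmTreat, run for the count of DEG alone. The number of members that fell was 4, and it was 8 with upper-quartile factors and from 2 to 5 on removal of any single library, with 2 without LPS replicate 2 or LPS replicate 3. The members that rose were 3, from 2 to 3 on such removal, 4 with robust dispersion, protein-coding genes alone or the replicate block, and 2 with upper-quartile factors, DESeq2 or no filter on low counts. Upper-quartile factors moved the median log2FC of the members from -0.035 to -0.0833 and that of all genes from 0.0036 to -0.0449. With those factors the log2FC was -0.18 for Fh1, -0.15 for Slc25a11, -0.13 for Me2 and -0.12 for Glud1, all called, and 0.14 for Pcx, not called. Pcx was also not called with no filter on low counts (adjusted p = 0.0797), where Suclg2 and Fh1 were (0.0181 and 0.0327). Over all genes, glmTreat gave 183 DEG in place of 326. Leaving out control replicates 2 and 3 gave 1151 lower genes over all and 4 lower related genes in place of 7. The cause of these shifts was not tested.

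Estimates near 0 that were not called in any of these fits changed sign. With RLE size factors these were Cs at -0.0017 and Mpc2 at -0.0017. With upper-quartile factors they were Pdhb at -0.0158, Cs at -0.0435, Idh3b at -0.0331 and Mpc2 at -0.0439. With DESeq2 they were Cs at -0.0023 and Mpc2 at -0.0025, and with no filter on low counts both were at -0.0027. Without control replicates 2 and 3 they were Pdhb at -0.0402, Idh3b at -0.0180, Ogdh at 0.0174, Mpc1 at -0.0834 and Mpc2 at -0.1338. On removal of any single library, the ranges were -0.0074 to 0.0607 for Pdhb, -0.0376 to 0.0427 for Dlat, -0.0134 to 0.0120 for Cs, -0.0524 to 0.0020 for Idh3a, -0.0083 to 0.0369 for Idh3b, -0.0678 to 0.0054 for Ogdh, -0.0850 to 0.0691 for Sdhd, -0.0482 to 0.0676 for Mpc2, -0.1086 to 0.0093 for Pdk3 and -0.0142 to 0.1673 for Clybl.

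The labels do not say whether equal replicate numbers pair the samples, and weak correlations between libraries cannot settle it. The correlations of same-numbered deviations were 0.131, 0.0484 and 0.0049. Control replicate 1 correlated best with LPS replicate 1, but control replicates 2 and 3 with an LPS library of another number. A replicate block gave 4 higher and 5 lower members and added Dld and Fh1. Over all genes it gave 2454 higher and 2020 lower, in place of 2294 and 1927.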
